A study of Saccharomyces cerevisiae with 14 samples.

Results

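The 5 sites followed here through yeast meiosis are those in RIM4, RIM11 and NDT80, which regulate meiosis, and in VIR1 and PHO92, a writer subunit and the reader of m6A, the methylated adenosine of mRNA. They were taken by gene identifier (YHL024W, YMR139W, YHR124W, YGL036W and YDR374C) from a table of 1184 distinct sites in 1010 genes, and every row of these genes was kept. At each site the table gives a cleavage efficiency, the fraction of the RNA cut by MazF, in 10 libraries of wild-type diploid SK1 cells, at 0, 1, 2, 3, 3.5, 4, 5, 6, 7 and 8 h from the induction of meiosis. SK1 is a strain widely used for meiosis because its cells sporulate fast and together. All 10 libraries share 1 genotype in the labels, MAT a/alpha with both copies of 3 genes altered: lys2/lys2, ho::LYS2/ho::LYS2 and ndt80::LEU2/ndt80::LEU2. The last of these disrupts NDT80 at every hour, and cells without Ndt80 are known to stop in pachytene. The 4 control samples of the series, 2 of them with ime4::HIS3/ime4::HIS3 in addition, were not analysed here.

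Yeast cells methylate mRNA in meiosis with a complex built around the methyltransferase Ime4, of which Vir1 is a subunit, and the YTH-domain protein Pho92 binds the methylated RNA. MazF is a bacterial endoribonuclease that cuts before an ACA and does not cut where the first A of it is methylated, so a lower cleavage efficiency goes with more methylation of that adenosine. Of the regulators, Rim11 is a kinase of the GSK3 family that promotes the joining of Ime1 to Ume6 and so the start of meiosis. Rim4 binds RNA and represses translation of some meiotic messages until late in the program, and Ndt80 is the transcription factor that carries cells out of pachytene.

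All 5 sites were placed in the coding sequence of their genes in the R64 reference of S288C, another laboratory strain, by counting within the gene. Over 1164 sites that could be placed, the deposited position minus 150 bases (plus strand) or 149 bases (minus strand) fell on an ACA in 1032, or 88.7%, and no other offset within 600 bases did so for more than 3.92% or 4.14% of the sites of those strands. The sequences are shown because they carry the motif that MazF cuts and that can be methylated. They are those of S288C, read at R64 coordinates, and may differ from SK1 by single bases. Each has 29 bases, 5′ to 3′ along the gene, in DNA letters, and the capitals mark the ACA that MazF recognises.
RIM4, chr8:57157-57185, plus strand: caaaagtgaacaggACAttgtacttgaaa
RIM11, chr13:546601-546629, plus strand: cgtctgtcatagagACAttaagcctcaaa
NDT80, chr8:358254-358282, plus strand: aggatgtgccaaggACAttttcaagaata
PHO92, chr4:1224302-1224330, minus strand: agagaaatgacaggACAattgaagactct

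In RIM4, NDT80 and PHO92 the ACA followed GG, and in RIM11 it followed AG. This is the purine and G that precede methylated adenosines in yeast, and 89.6% of the 1032 sites that fell on an ACA had GG or AG before it. All 4 sites also had a T at the 4th base after the first A of the ACA, as did 75.4% of those sites. RIM11 and NDT80 had an A at the 4th base before it, as did 59.2%, and RIM4 and PHO92 did not. RIM4 and PHO92 had a second ACA that starts 5 bases before the marked one. A second ACA within the 10 bases before was found at 60 of the 1032 sites, or 5.81%, and no source used here says how the deposited values treat cuts there. In VIR1 the placed position was not on an ACA. The nearest ACA started 3 bases before it, the length of 1 codon, and followed GG, and since that placement is uncertain no sequence is printed for it.

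The sites lay at different places along their genes. That of PHO92 was at base 79 of 921, in codon 27, and that of RIM4 at base 523 of 2142, in codon 175. RIM11 had its site at base 491 of 1113, in codon 164, and VIR1 near base 1644 of 2730. Only the site of NDT80, at base 1708 of 1884 and in codon 570, was in the last 20% of its gene. Of the 905 sites on an ACA within an annotated gene, 38.6% were in that last stretch. The table itself puts the 5 sites at position 57515 of chromosome 8 (RIM4), 536775 of chromosome 13 (RIM11), 357510 of chromosome 8 (NDT80), 1215790 of chromosome 4 (PHO92) and 439839 of chromosome 7 (VIR1), in a genome build that no source used here names and that differs from R64.

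The libraries differed in how many of the 1184 sites had a value, from 299 at 0 h to 1171 at 3.5 h. Read depth per value is unknown, which leaves the values without a counting interval, and there was 1 library per hour. Among the 214 sites measured in every library, the median was 0.926 in the 0 h, 0.855 in the 6 h and 0.872 in the 8 h library. Each of the 5 genes had 9 of 10 values. RIM4, RIM11, PHO92 and VIR1 had none at 0 h, as was the case for 74.7% of all sites, and NDT80 had none at 1 h. All 13 sites of a list of early meiotic genes (SPO13, RED1, HOP2 and others) also lacked a value at 0 h, and all 13 had one at 3.5 h. Values are averages over the cells of a culture, so more methylation in every cell and methylation in more of the cells cannot be told apart.

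RIM4 was the least cut of the 5 sites at every hour at which it had a value. The 1 h library had a cleavage efficiency of 0.862, the 2 h library 0.788, the 3 h library 0.659, the 3.5 h library 0.594 and the 4 h library 0.511. The 5 h library had 0.537, the 6 h library 0.640, the 7 h library 0.549 and the 8 h library 0.550. The share left uncut was thus 0.138 at 1 h and 0.489 at 4 h, each value between those hours being lower than the one before it, and all 7 values from 3 h on lay below both earlier ones. From 1 h to 4 h the difference was -0.351, and 11 of the 486 tested sites with values at both hours had a larger negative one, against a median of -0.0362. These hours held the highest and lowest values of RIM4 itself, so that count favours it. Between the highest and lowest value of each site, 82.0% of the other tested sites had a smaller range than RIM4. The 1 h value was higher than that of 31.4% of the other sites in the same library, the 4 h value than that of 11% and the 8 h value than that of 10.6%.

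**Figure D1:**
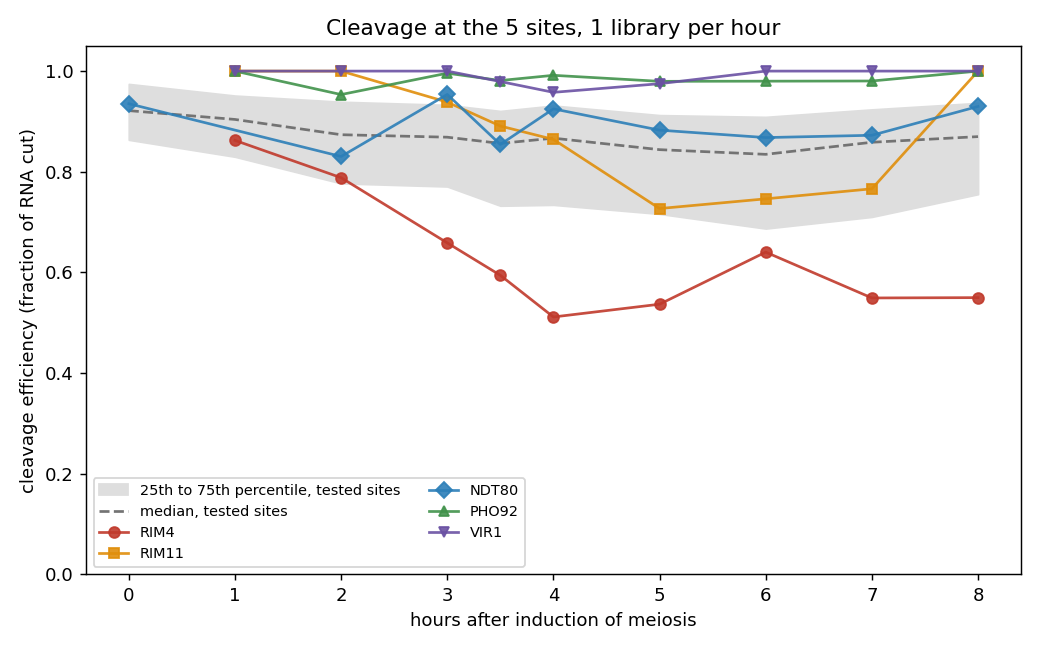
Cleavage efficiency (fraction of RNA cut, vertical axis) against hours after induction for the 5 sites, 1 point per library; the dashed line is the median and the grey band the interquartile range of the 591 tested sites. RIM4 goes below the band from 3 h, RIM11 comes to 0.727 at 5 h and is at 1.00 at 8 h, and PHO92 and VIR1 stay at 0.953 or more; the NDT80 line bridges the missing value at 1 h.

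RIM11 was cut completely at both ends of its series and less in between. The 1 h and 2 h libraries had 1.00, the 3 h library 0.938, the 3.5 h library 0.891, the 4 h library 0.864 and the 5 h library 0.727. The 6 h library had 0.746, the 7 h library 0.766 and the 8 h library 1.00. The 5, 6 and 7 h values were the lowest, and the 8 h value was 0.234 above that of 7 h. Among 500 tested sites with values at both hours, 25 had a larger difference in that direction, and the median was 0.0191. This was the largest rise between neighbouring libraries of RIM11 itself, so that count favours it. Of the 499 tested sites with values at 6, 7 and 8 h, 54 were at exactly 1 at 8 h, and 6 of these had been under 0.8 at 6 h. A value of exactly 1, here at 3 of 9 hours, cannot be told apart from one that rests on few reads. The values of RIM11 under 1 were also each shared exactly by other sites of the same library. In the 5 h library 30.6% of the other sites were lower and 31.8% lower or equal. RIM4 had such a tie only in the 1 h library. Under 1, NDT80 had ties in the 0, 2, 3 and 3.5 h libraries, and PHO92 in the 2 h library, its lowest value. Whether these ties come from few reads was not tested, so the doubt is not limited to values of 1.

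NDT80 was cut to a high degree throughout, without an order in time. The 0 h library had 0.935, the 2 h library 0.830, the 3 h library 0.954, the 3.5 h library 0.854 and the 4 h library 0.925. The 5 h library had 0.883, the 6 h library 0.868, the 7 h library 0.872 and the 8 h library 0.930. Neighbouring libraries differed in both directions, and the 7 values from 3 h on overlapped the earlier ones. The 0, 2, 3 and 3.5 h values, with the lowest and highest among them, were each shared exactly by other sites. The doubt given for RIM11 therefore holds for these values too. The labels give ndt80::LEU2 without saying which bases, if any, were removed. The site in codon 570 had a value at 9 hours, and it is no check of the genotype.

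The writer subunit and the reader were cut almost completely at all hours. VIR1 was at 1.00 at 1, 2, 3, 6, 7 and 8 h. The values under 1 were in neighbouring libraries, with 0.979 in the 3.5 h library, 0.958 in the 4 h library and 0.975 in the 5 h library. As in RIM11, the values of VIR1 at exactly 1 may rest on few reads, and its placed position was not on an ACA. For PHO92 the 1 h library had 1.00, the 2 h library 0.953, the 3 h library 0.996, the 3.5 h library 0.981 and the 4 h library 0.992. It was 0.980 at 5, 6 and 7 h and 1.00 at 8 h. Over 3 to 8 h, VIR1 averaged 0.987 and PHO92 0.987, higher than 98.3% and 98.1% of the other tested sites, whose median was 0.856. RIM11 averaged 0.847 and NDT80 0.898 over the same hours, higher than 47.1% and 68.1%, while RIM4, at 0.577, was higher than 12.7%. In that order, the ranges of VIR1 and PHO92 overlapped, as did those of RIM11 and NDT80, whereas RIM4 was below the other 4 at each of these hours.

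**Figure D2:**
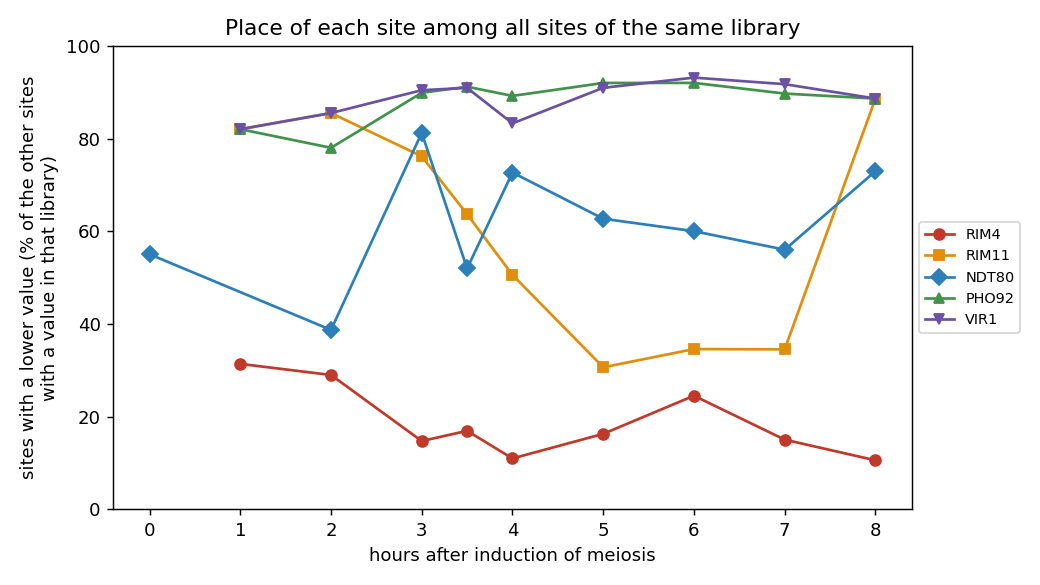
Share of the other sites of a library with a lower value (percent, vertical axis) against hours after induction, 1 point per site and library. RIM4 is the lowest line, from 31.4% at 1 h to 10.6% at 8 h, RIM11 is at 30.6% at 5 h and 88.6% at 8 h, and PHO92 and VIR1 stay at 78.0% or more; sites tied at exactly 1 do not count as lower.

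The first test asked whether cleavage moved along a straight line in the hour. The line was fitted with limma to the 591 sites in 532 genes that had values in at least 8 libraries, which took in all 5 sites. Each p-value sets the slope against an error that combines the scatter of single libraries around the line with a variance shared over sites. Nothing in the labels tells if all libraries were drawn from 1 culture. None of the 5 sites passed at an adjusted p of 0.05, and RIM4 alone had an unadjusted p under 0.05. Over all tested sites 3.05% passed with a negative slope and 0% with a positive one, and 0 of 5 is near that background. RIM4 had a slope of -0.0389 ± 0.0144 per hour (SE, limma, unadjusted p = 0.0207, adjusted p = 0.195), with 95% limits of -0.0706 and -0.00716. Of the 591 slopes, 51 were more negative. RIM11 had a slope of -0.0222 ± 0.0138 per hour (adjusted p = 0.409), and 103 slopes were more negative. With libraries shifted to 1 median the slope was -0.0339 in RIM4 and -0.0172 in RIM11. With libraries scaled to 1 median it was -0.0349 and -0.0171, and neither site passed at either setting.

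The slopes of the other 3 sites were close to zero in the values as deposited. The slope was 0.000956 per hour in PHO92, with 95% limits of -0.00455 and 0.00646, and 0.000456 in VIR1, with limits of -0.00518 and 0.00609. In NDT80 it was -0.00126 per hour, with wider limits of -0.0154 and 0.0128. The median over all tested sites was -0.00614, and 72.8% of slopes were negative, against 3 of the 5 here. These 3 slopes depended on the level of the libraries. With libraries shifted to 1 median the slope of PHO92 was 0.00591 (limma, unadjusted p = 0.0477, adjusted p = 0.281) and with libraries scaled to 1 median 0.00650 (unadjusted p = 0.0361, adjusted p = 0.257), the scaled value lying above the upper limit given for PHO92. VIR1 had 0.00541 shifted and 0.00606 scaled, and NDT80 changed sign, with 0.00500 and 0.00508. None of the 3 passed at either setting. PHO92 and VIR1 lay close to the highest value a fraction can take, with 2 and 6 of their 9 values at exactly 1, so their limits do not show that methylation was steady.

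**Figure D3:**
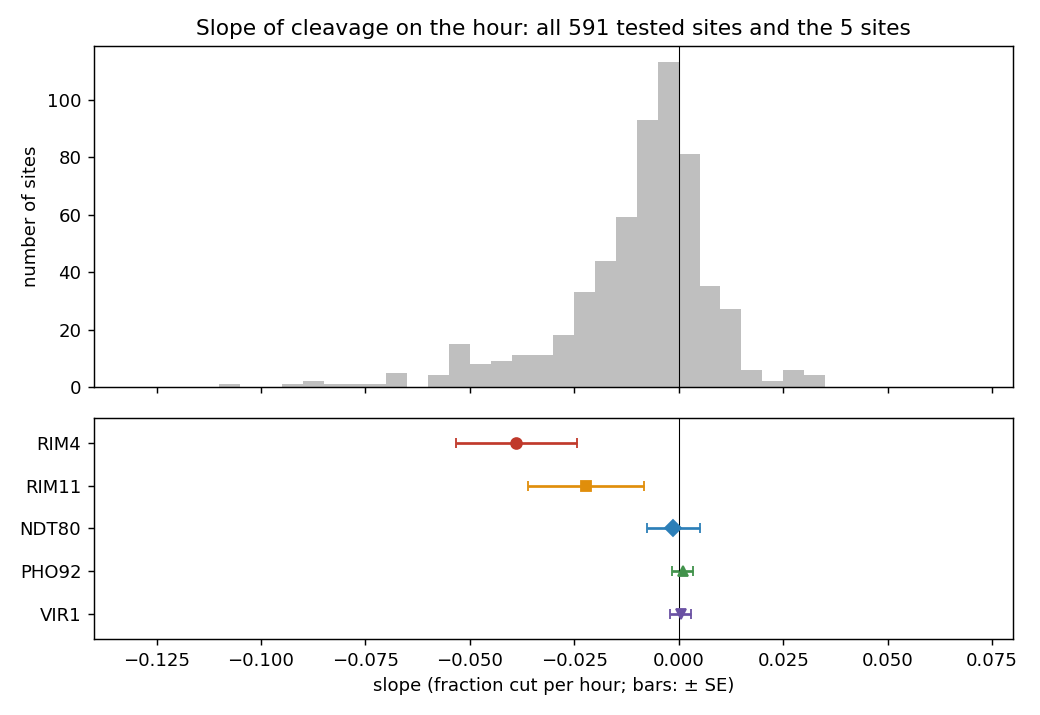
Top, number of the 591 tested sites by slope of cleavage efficiency on the hour (fraction per hour); bottom, the slopes of the 5 sites with their SE. RIM4 (-0.0389) and RIM11 (-0.0222) lie on the negative side, with 51 and 103 of the slopes more negative. NDT80, PHO92 and VIR1 lie at zero within their errors in the values as deposited, while with libraries scaled to 1 median they had 0.00508, 0.00650 and 0.00606.

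The second test compared parts of the course without asking for a line: late (5, 6, 7 and 8 h), middle (3, 3.5 and 4 h) and early (0, 1 and 2 h) libraries, over the 590 sites with at least 2 values in each. RIM4 averaged 0.569 in late and 0.825 in early libraries, a difference of -0.256 ± 0.0699 (SE, limma, unadjusted p = 0.00407, adjusted p = 0.0792). RIM11 averaged 0.810 in late and 1.00 in early libraries, a difference of -0.190 ± 0.0683 (unadjusted p = 0.0187, adjusted p = 0.159). Neither passed, and of all sites 1.69% were called lower late and 0% higher. That split depended on the level of the libraries, with 8 sites lower and 4 higher when they were shifted to 1 median, and 10 lower and 5 higher when they were scaled to it. RIM4 had a difference of -0.223 shifted and -0.229 scaled, and RIM11 -0.157 at both settings, with no call in either. The early mean rests on the 1 h and 2 h values only for both genes. Values from 3 h on that all lie below the earlier ones, as in RIM4, were found at 81 of the 590 sites, or 13.7%.

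In RIM4 the middle libraries differed from the early ones nearly as much as the late ones did. They averaged 0.588, against 0.825 in early ones, a difference of -0.237 ± 0.0737 (limma, unadjusted p = 0.00875, adjusted p = 0.297). Late and middle libraries of RIM4 differed by -0.0191 ± 0.0616 (adjusted p = 0.968). In RIM11 the middle libraries averaged 0.898, a difference of -0.102 ± 0.0720 from the early ones (adjusted p = 0.607), and late and middle libraries differed by -0.0880 ± 0.0603 (adjusted p = 0.824). Of the 590 sites 0 passed in either of these comparisons (limma), with 64 at an unadjusted p under 0.05 for middle minus early and 35 for late minus middle. Late minus early was 0.00830 in PHO92, -0.00627 in VIR1 and 0.00545 in NDT80, with 95% limits of -0.0242 and 0.0408, -0.0369 and 0.0243, and -0.0865 and 0.0974. For PHO92 it was 0.0414 with libraries shifted (limma, unadjusted p = 0.00995, adjusted p = 0.117) and 0.0452 with libraries scaled (unadjusted p = 0.00623, adjusted p = 0.0897), both above the upper limit given for PHO92. VIR1 then changed sign, with 0.0268 shifted and 0.0311 scaled, and NDT80 had 0.0470 and 0.0473, with no call in either.

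Whether RIM11 passed depended on the 8 h library and on the shape that was fitted. Without it, RIM11 fell by 0.0508 per hour (limma, adjusted p = 0.0142), and late minus early was -0.254 (adjusted p = 0.0236). From 0 to 6 h alone, with no value of RIM11 at 0 h, the slope was -0.0618 (limma, adjusted p = 0.0187). There 53 of 809 tested sites passed. With a curve in place of a line, a spline with 3 degrees of freedom over all hours, RIM11 also passed (limma, adjusted p = 0.0222). With that curve 32 of 591 sites passed in all. Without the 8 h library 50 sites in all passed the test for a line and 28 the late and early comparison, against 18 and 10 with it. Without any other single library, 0 to 8 sites passed for a line and 0 to 7 in the late and early comparison. RIM4 did not pass for a line under any of these settings, its adjusted p without any 1 library being from 0.121 to 0.518. Its slope without the 1 h library was -0.0264, against -0.0389 with it. In the late and early comparison RIM4 passed only when the prior variance did not depend on the mean (limma, adjusted p = 0.0307), a setting at which 26 of 590 sites passed.

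**Figure D4:**
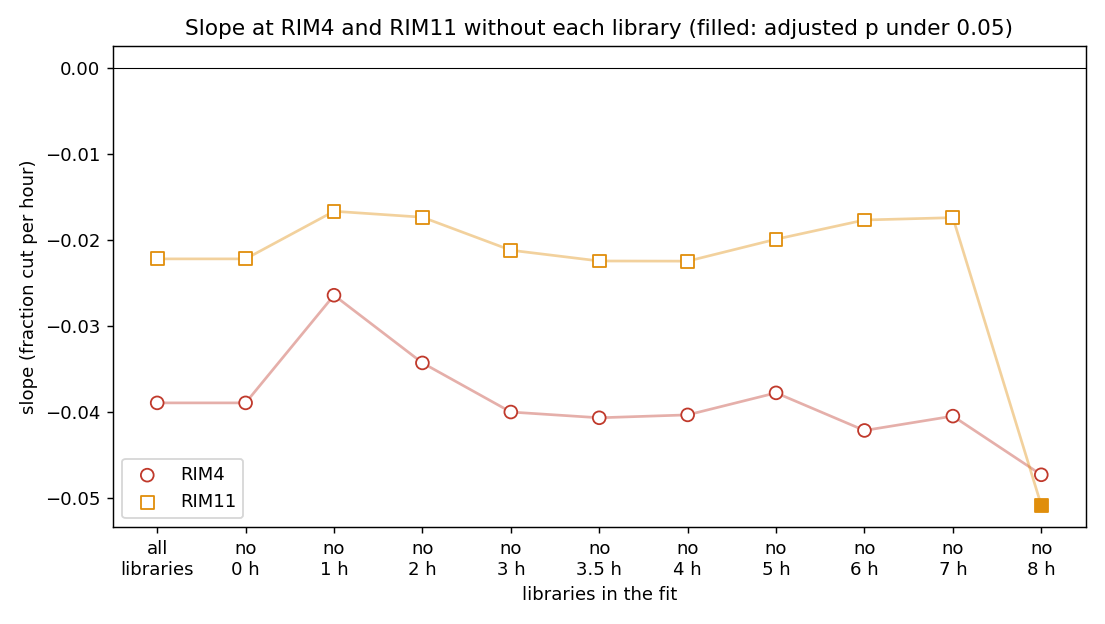
Slope of cleavage efficiency on the hour (fraction per hour, vertical axis) at RIM4 and RIM11, with all libraries and without each library in turn; filled points have an adjusted p under 0.05. RIM11 is at -0.0508 and filled only without 8 h, and RIM4 is at -0.0264 without 1 h.

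The values of RIM4 set it low among sites with the same bases around the ACA. Of 118 other tested sites with GG before the ACA, a T at the 4th base after its first A and no A at the 4th before, 12 averaged less than RIM4 over 3 to 8 h, and 8 had a more negative slope. PHO92 shares those bases with RIM4, and 117 of its 118 averaged less than it. For RIM11, with AG before and both outer bases, 22 of 58 other sites averaged less and 12 had a more negative slope. For NDT80, with GG and both outer bases, it was 72 and 75 of 101. These counts describe the sites, and genes with shared bases are not replicates.

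Few other genes of these pathways had a row. Of 24 further regulators of meiosis, which included IME1, IME2, RME1 and UME6, only RIM15 and RIM21 had a site, and of the 7 genes of the methylation complex and its readers only VIR1 and PHO92. RIM15, a kinase of nutrient signalling needed for meiotic entry, had 5 values, 0.746 in the 3.5 h library, 0.871 in the 5 h and 0.771 in the 7 h library among them, and no test. RIM21, a membrane sensor of the pathway that activates Rim101, had 0.931 in the 0 h library, 0.829 in the 1 h, 0.951 in the 2 h, 0.812 in the 3.5 h, 0.781 in the 4 h, 0.647 in the 5 h and 0.632 in the 6 h library, with no value at 3, 7 or 8 h. It had too few values for the line, and late minus early was -0.264 (limma, adjusted p = 0.0538). In the list of early meiotic genes, 1 of 10 tested sites fell, that of PCH2 at position 1670 (slope of -0.0514 ± 0.0114 per hour, SE, limma, adjusted p = 0.0445), and none rose, beside 3.05% lower and 0% higher over all tested sites. The other tested site of PCH2, at position 1283, had a slope of -0.00390 per hour (limma, adjusted p = 0.897). The median slope of the list was -0.0120, and that of all tested sites -0.00614, a description without a test. Of the middle sporulation genes that Ndt80 turns on, 1 of 13 had a site, in CDC5, and it had too few values to be tested. In the list of mitotic growth, 2 of 6 genes had a site, PMA1 and RNR1. That of PMA1 was the 1 tested site, and its slope had an adjusted p of 0.195 (limma). It had 0.951 in the 0 h library, 0.910 in the 1 h, 0.836 in the 2 h, 0.903 in the 3 h, 0.737 in the 3.5 h and 0.817 in the 4 h library. The 5 h library, its lowest, had 0.398, the 6 h library 0.577 and the 7 h library 0.771, with no value at 8 h. The site of RNR1 had too few values to be tested. It had 0.842 in the 2 h library, 0.898 in the 5 h, 0.853 in the 6 h and 0.751 in the 7 h library.

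The sites of other genes most like each of the 5 were found by the mean absolute difference over shared libraries. For RIM4 they were in AIM2, with 0.0511 over 9 libraries, and in AAC1, a mitochondrial carrier of ADP and ATP, with 0.0590, against a median of 0.248 over 567 candidate sites. AIM2 had 0.903 in the 1 h library, 0.557 in the 4 h and 0.439 in the 8 h library. For RIM11 they were in ASI1, of a ubiquitin ligase of the inner nuclear membrane, with 0.0387 over 8 libraries, and in ATP5, a subunit of ATP synthase, with 0.0468 over 9. ATP5 was at 0.950 at 1 h, 0.824 at 5 h and, like RIM11, at 1.00 at 8 h, while ASI1 had no value at 8 h. NDT80 was closest to RPM2, the protein subunit of mitochondrial RNase P, with 0.0247, and to MRS6, with 0.0252. PHO92 was closest to RPT4, an ATPase of the proteasome, with 0.00451, and to a site of 25S ribosomal RNA (RDN25-1), with 0.00848. VIR1 was closest to GPN2, with 0.00795, and to SGS1, a DNA helicase, with 0.0110, whose 8 values were all 1.00. The medians over candidate sites were 0.109 for RIM11, 0.0819 for NDT80, 0.124 for PHO92 and 0.129 for VIR1. PHO92, VIR1 and the sites closest to them all lay near 1, so their small differences do not show a shared course in time.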

How the data were processed

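Per the labels, polyA RNA of diploid yeast was fragmented, ligated to adapters and copied to cDNA, and per the file headers it had been treated with MazF. The deposited values are cleavage efficiencies, a fraction from 0.00442 to 1 for each site and library, with missing values. The tools listed, without their roles, per the submitters' processing notes are bedtools 2.26.0 and STAR 2.5.3a. No source used here gives the definition of a cut read, the coverage, the rule behind missing values or the build, so depth is unknown.

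Each column was assigned to the sample whose title holds the same hour. The table has 4 more columns whose names match no label, and they were used in no step, so the planned comparison of the ime4 deletion with its control was not made. Of 1198 rows, 14 repeats of a position under another gene were removed. Gene names come from R64 (995 of 1010 identifiers matched).

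Slopes on the hour and window contrasts were fitted to the fraction without scaling with limma 3.58.1 in R 4.3.3, with a mean-dependent prior variance, and p-values were adjusted by Benjamini-Hochberg over all tested sites at 0.05. The step was tested on simulated data with independent normal scatter. These had no upper bound on the fraction and no shifts between libraries, so that test does not cover either. The 5 genes and the lists were chosen with earlier results of these data known. All sites of the 5 genes are named, of the other lists those that passed or had the smallest p, and for likeness the 2 closest sites with at least 6 shared libraries, and at least 80% of those of the site. Alternatives covered the scale, library level, variance model, filters, time shape, windows and leaving out each library.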

Additional observations from a re-analysis of the deposited data

How the results depend on the processing

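For the slope and the 3 window differences of the 5 sites, 20 results, 413 alternative fits gave a value. In 378 of them the result kept its direction and its side of the threshold, in 30 its direction turned, and in 5 it passed where it had not. Many of these fits could not change the value. The prior variance and the filters on sites act on the p-values alone. Leaving out 0 h removed no value of RIM4, RIM11, PHO92 or VIR1, and leaving out 1 h none of NDT80. A difference of 0, as in VIR1, counted as kept, so the 378 are no measure of stability. The 5 were RIM4 with a prior variance that did not depend on the mean (late minus early of -0.256), and 4 of RIM11: the slope from 0 to 6 h (-0.0618), the spline with 3 degrees of freedom (a fitted change of -0.0261 between 1 h and 8 h), and the slope and the late and early difference without 8 h. Left out 1 library at a time, RIM11 had slopes from -0.0508 to -0.0167 and late minus early from -0.254 to -0.163. RIM4 kept its direction in the slope and in late and middle minus early in all of these fits.

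The turns in direction were at NDT80, PHO92 and VIR1 and, in late minus middle, at RIM4, none of which passed. With libraries shifted to 1 median, the slope of NDT80 was 0.00500, late minus early of VIR1 0.0268 and middle minus early 0.00137, and late minus middle of PHO92 0.00617. With libraries scaled to 1 median these were 0.00508, 0.0311, 0.00381 and 0.00771. PHO92 kept its direction at both settings but its slope was 0.00591 and 0.00650, against 0.000956, and its late minus early 0.0414 and 0.0452, against 0.00830. On the logit scale, late minus early of NDT80 was -0.0269. With ranks of the hour VIR1 had a slope of -7.18e-05, and from 0 to 6 h PHO92 had -0.000729 and VIR1 -0.00336. With the spline the fitted change of NDT80 was 0.000722. With the early window reaching 3 h, late minus early of NDT80 was -0.0182, middle minus early -0.0168, and late minus middle of RIM4 0.0162, while with the middle window reaching 5 h that of RIM4 was 0.00450. Left out 1 library at a time, slopes ran from -0.00604 to 0.00440 in NDT80, from -0.00118 to 0.00332 in PHO92 and from -0.000716 to 0.00190 in VIR1. Late minus early ran from -0.0470 to 0.0579 in NDT80 and from -0.0150 to 0.0316 in PHO92, middle minus early from -0.0243 to 0.0806 in NDT80 and from -0.0104 to 0.0362 in PHO92, and late minus middle from -0.0575 to 0.0162 in RIM4. Where a window was left with 1 library, that library was taken to vary like the others. The cause of these turns was not tested.

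The number of sites of the whole table that passed depended on the settings, so the share beside which the 5 sites are read does too. For the slope it was 18, but 0 with libraries shifted or scaled to 1 median, 0 with at least 6 values, 8 with all 10, 11 with values of exactly 1 set to missing, 53 from 0 to 6 h and 32 with the spline (27 lower and 5 higher). Where it was 0 in these fits, 102 (shifted), 101 (scaled) and 167 (at least 6 values) sites had an unadjusted p under 0.05 (limma). It was 0 to 50 with 1 library left out: 5 for the 0 h library, 2 for 6 h, 8 for 7 h, 50 for 8 h and 0 for each of the others, and 81 to 140 had an unadjusted p under 0.05. For late minus early it was 10, all lower, and 12 with libraries shifted (8 lower and 4 higher) and 15 with libraries scaled (10 lower and 5 higher), but 26 with a prior variance independent of the mean, 18 with values of exactly 1 set to missing, 0 with the early window reaching 3 h (147 at an unadjusted p under 0.05) and 0 with at least 1 value in each window (180). It was 0 to 28 with 1 library left out: 7 for the 2 h library, 2 for 3 h, 6 for 4 h, 28 for 8 h and 0 for each of the others, with 73 to 133 at an unadjusted p under 0.05. For middle minus early it was 0, with 64 sites at an unadjusted p under 0.05 (limma), and 1 on the logit scale, 1 with values of exactly 1 set to missing, 1 with the middle window reaching 5 h and 0 to 2 with 1 library left out. Late minus middle gave 0 in every fit run, with 35 sites in the reported one at an unadjusted p under 0.05. With values of exactly 1 set to missing, RIM11, PHO92 and VIR1 had too few values to be tested, and none of the 5 sites has all 10 values. Depth per value is unknown, which limits the reading of every single value, those of exactly 1 above all. No paired analysis was possible because each hour has 1 library and the control columns match no label. Each of the 5 genes has 1 site, so the planned comparison of sites within a gene was not run.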
